A study of Mus musculus with 12 samples.

Results

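A set of 10 imprinted genes that act in growth or in development was followed across 2 clones of mouse embryonic fibroblasts: Dlk1, Meg3, Dio3, Igf2, H19, Mest, Ndn, Peg3, Grb10 and Plagl1. They were chosen by name, and every probe whose platform gene symbol was one of the 10 names (or an older name of one) was taken. Of the 10 genes, 8 had a probe, with 12 probes among the 25697 on the array. Meg3 and H19, both long noncoding RNAs, matched no probe by symbol, older symbol or Entrez ID, so they were not analysed here. Of these, 6 (Dlk1, Dio3, Igf2, Mest, Ndn and Grb10) had a probe above background, with a detection p-value under 0.05, on at least 2 of the 12 arrays and were tested among 8891 genes.

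The cells were fibroblasts of C57BL/6 embryos, labelled female and immortalized with SV-40 large T. Both genotypes shared that origin, and each was represented by 1 clone, so that genotype and clone cannot be told apart. WT cells carried the normal β1 integrin, and YYFF cells carried the β1 integrin mutation YYFF, with which, per the labels, cytokinesis fails on a matrix that only β1 integrins bind. Each clone was plated on laminin, such a matrix, 0, 4 or 8 times (L0, L4 and L8) and was afterwards grown on plastic, which gave 6 groups of 2 arrays each. More laminin passages also meant a longer time in culture, and these cannot be told apart. The embryonic stage label ran on from sample to sample, so the age of the embryos rests on the label of WT L4 replicate 1, which reads E13.5. The labels do not say that the 2 replicates of a group were separate cultures. The p-values therefore measure only the spread between these arrays, which may be technical.

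An imprinted gene is read mainly from the copy inherited from 1 parent, because methylation of CpG pairs laid down in the germ line marks the parental copies differently. Imprinted genes often lie in clusters under a shared control region. In the Dlk1-Dio3 cluster the protein-coding genes Dlk1 and Dio3 are read from the paternal copy and the noncoding Meg3 from the maternal copy, and in the Igf2-H19 cluster Igf2 is paternal and H19 maternal. Many of these genes are active in embryonic mesenchyme and decline after birth. The array probes read transcript from both copies together, so allele use and imprinting themselves were not measured. In these bulk samples, fewer expressing cells and less RNA per cell cannot be told apart.

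RefSeq promoter windows (build GRCm38.p6, 250 bases before to 50 after a transcript start) were available for 9 of the 10 genes. Of these, 4 windows are printed: the pair Dlk1 and Mest, which were both seen at L0 of the YYFF clone; Igf2, which was seen at L0 of both clones; and Grb10, which was seen on every array. CG pairs, where mammalian DNA methylation sits, are in capitals. Where RefSeq lists several starts, the window with the most CG pairs is shown.
Dlk1, chr12:109452573-109452872, plus strand: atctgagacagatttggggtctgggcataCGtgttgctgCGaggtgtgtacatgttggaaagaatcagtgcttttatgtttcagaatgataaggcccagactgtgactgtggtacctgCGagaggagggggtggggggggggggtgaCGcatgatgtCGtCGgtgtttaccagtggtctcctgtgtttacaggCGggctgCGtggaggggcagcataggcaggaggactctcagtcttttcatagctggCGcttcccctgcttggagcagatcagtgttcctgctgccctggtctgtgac
Mest, chr6:30737800-30738099, plus strand: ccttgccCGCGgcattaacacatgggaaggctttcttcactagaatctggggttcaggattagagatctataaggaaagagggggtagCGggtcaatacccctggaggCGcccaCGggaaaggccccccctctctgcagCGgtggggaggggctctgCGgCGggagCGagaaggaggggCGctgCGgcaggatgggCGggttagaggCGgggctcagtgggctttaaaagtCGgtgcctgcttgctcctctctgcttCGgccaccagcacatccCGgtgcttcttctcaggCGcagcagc
Igf2, chr7:142658755-142659054, minus strand: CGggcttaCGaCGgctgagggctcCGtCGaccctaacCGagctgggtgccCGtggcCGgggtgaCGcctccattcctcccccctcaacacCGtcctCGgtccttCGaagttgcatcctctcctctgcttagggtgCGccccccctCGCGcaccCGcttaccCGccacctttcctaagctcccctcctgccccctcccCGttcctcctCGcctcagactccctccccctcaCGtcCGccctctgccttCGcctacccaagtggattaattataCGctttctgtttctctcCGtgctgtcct
Grb10, chr11:12037371-12037670, minus strand: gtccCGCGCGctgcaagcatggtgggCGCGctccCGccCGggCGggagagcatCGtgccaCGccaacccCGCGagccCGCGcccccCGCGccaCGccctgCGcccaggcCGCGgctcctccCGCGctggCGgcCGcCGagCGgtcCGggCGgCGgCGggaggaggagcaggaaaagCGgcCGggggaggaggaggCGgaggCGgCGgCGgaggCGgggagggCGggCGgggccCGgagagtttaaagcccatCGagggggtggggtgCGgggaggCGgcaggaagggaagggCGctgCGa

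The 4 windows held 9 (Dlk1), 17 (Mest), 24 (Igf2) and 45 (Grb10) CG pairs, against a median of 7 over the 32851 RefSeq promoter windows of 300 bases. The share of all windows with at least as many CG pairs was 45.8% for Dlk1, 31.4% for Mest, 20.0% for Igf2 and 1.9% for Grb10. Of the 4 windows shown, Grb10 had the densest as well as a GC content of 80.0%, while Dlk1 had the fewest CG pairs and a GC content of 55.7%. The windows of Mest, Igf2 and Grb10 were picked from several starts for their CG pairs, which lowers these shares. The other Grb10 window held 9 CG pairs, the other Igf2 windows 2, 14 and 7, and the other Mest windows 8 and 17. The Dio3 window (chr12:110278980-110279279, plus strand) held 25 CG pairs and the Ndn window (chr7:62348027-62348326, plus strand) 11. The letters TATAAA were found on either strand of the Dio3 window and of none of the 5 others, against 14% of all windows. The letters GGGCGG, which hold 1 CG pair each and share no position with TATAAA, were found on either strand in 5 of the 6 windows (not Dlk1), against 35.7% of all windows. Picking the start with the most CG pairs favours a match to GGGCGG, and the other Grb10 window had none. These are matches of letters only, and methylation was not measured.

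Dlk1 and Dio3 lie next to each other among the tested genes of chromosome 12. Dlk1 encodes a transmembrane protein of the Notch ligand family without the domain that canonical ligands use, and it keeps preadipocytes and other precursors from differentiating. Its probe gave a normalized log2 intensity of 9.62 and 9.55 on the 2 YYFF L0 arrays. On the other 10 arrays it lay between 4.57 and 4.78 and was at background, with detection p-values of 0.45 to 0.97. The non-normalized intensities were 911 and 742 on the YYFF L0 arrays and 47.1 to 64.8 on the others, so the groups did not overlap. Dlk1 was at least 15.6-fold lower in YYFF L4 than in YYFF L0 (limma, adjusted p = 1.42e-08) and at least 14.8-fold lower in YYFF L8 than in YYFF L0 (adjusted p = 1e-08). At L0 it was at least 16.5-fold higher in YYFF cells than in WT cells (adjusted p = 1.74e-08). Such a bound sets the brighter group against the dimmest signal that counted as above background. Dlk1 entered the test only through the YYFF L0 arrays, so a difference between them and the rest was built into its selection.

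Dio3 encodes the deiodinase that inactivates thyroid hormone. It gave a log2 intensity of 9.46 and 9.67 in WT L0, 6.13 and 6.59 in WT L4, and 7.85 and 7.98 in WT L8. In the YYFF clone it gave 7.87 and 7.95 at L0, 5.05 and 4.85 at L4, and 4.91 and 4.86 at L8. The order of the group means was WT L0, WT L8, YYFF L0, WT L4, YYFF L4 and YYFF L8. WT L8 and YYFF L0 overlapped, as did YYFF L4 and YYFF L8, both of which lay at background on both arrays.

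In the WT clone Dio3 fell by 3.20 ± 0.16 (SE) on the log2 scale from L0 to L4, or 9.20-fold (limma, adjusted p = 3.46e-06, n = 2 arrays per group here and throughout). It was then 2.94-fold higher at L8 than at L4 (log2 change 1.55 ± 0.16, adjusted p = 0.000277), and remained 3.13-fold below L0 (-1.65 ± 0.16, adjusted p = 7.47e-05). In the YYFF clone L4 lay at least 4.90-fold below L0 (adjusted p = 1.37e-06) and L8 at least 4.64-fold below L0 (adjusted p = 1.13e-06). The Dio3 signal of YYFF cells was below that of WT cells by 3.15-fold at L0 (adjusted p = 8.49e-05), at least 1.68-fold at L4 (adjusted p = 0.000129) and at least 4.66-fold at L8 (adjusted p = 1.2e-06). Dlk1 and Dio3 therefore differed in which clone was the brighter at L0, with Dlk1 higher in YYFF and Dio3 higher in WT. Across the 12 arrays their Pearson r was 0.26, given as a description of arrays that share clones and passages.

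Igf2 encodes the insulin-like growth factor that drives fetal growth, and it signals through Igf1r and is cleared by Igf2r. Its log2 intensity was 8.72 and 8.64 in WT L0 and 9.85 and 9.87 in YYFF L0. It was 5.59 and 5.32 in WT L4, 5.35 and 5.41 in WT L8, 5.33 and 5.11 in YYFF L4, and 5.18 and 5.21 in YYFF L8. Of these 8 arrays after laminin only 1, WT L4 replicate 1, was above background, and the L0 arrays of both clones lay clear of all of them.

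At L0 the Igf2 signal was 2.27-fold higher in YYFF than in WT (log2 difference 1.18 ± 0.12, adjusted p = 0.000116). In WT the log2 change from L0 to L4 was -3.22 ± 0.12 (adjusted p = 7.07e-07), with 1 of the 2 L4 arrays above background, and Igf2 was at least 9.0-fold lower at L8 than at L0 (adjusted p = 2.14e-07). In YYFF it was lower than at L0 by at least 19-fold at L4 (adjusted p = 3.77e-08) and at least 18-fold at L8 (adjusted p = 3.16e-08). Between L4 and L8 the change was -0.08 in WT (adjusted p = 0.714), on values mostly at background. Igf2 was thus the 1 gene of the 6 that went from above background on both arrays to background on both arrays between L0 and L8 in each clone. It passed the filter on detection only with L0 arrays, so a fall from L0 was in part built into its selection.

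Mest encodes a membrane protein of the hydrolase fold that is expressed in embryonic mesoderm and in growing fat tissue. Its brightest probe, ILMN_2846904, gave a log2 intensity of 8.21 and 8.35 in YYFF L0. In WT it gave 5.22 and 4.88 at L0, 5.04 and 5.48 at L4, and 5.36 and 6.15 at L8, and in YYFF it gave 4.74 and 4.87 at L4 and 4.88 and 4.74 at L8. YYFF L0 stood clear of every other group, and of the other 10 arrays only WT L8 replicate 2 was above background. Mest was at least 6.34-fold lower in YYFF L4 (limma, adjusted p = 9.05e-06) and at least 6.00-fold lower in YYFF L8 (adjusted p = 8e-06) than in YYFF L0. At L0 it was at least 6.68-fold higher in YYFF cells than in WT cells (adjusted p = 2.3e-05). This probe passed the filter on detection only with the YYFF L0 arrays.

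The 2 further Mest probes were also above background on at least 2 arrays, and all 3 gave the same high group. Probe ILMN_2642417 gave 7.94 and 8.38 in YYFF L0 and between 4.79 and 5.67 on the other arrays, with both WT L8 arrays (5.67 and 5.63) above background. Probe ILMN_2642418 was dimmer, with 6.67 and 6.66 in YYFF L0 and 4.76 to 5.13 elsewhere. When every probe was fitted on its own, the YYFF L8 vs L0 change was -3.21 ± 0.16 for ILMN_2642417 (adjusted p = 9.32e-07) and -1.78 ± 0.11 for ILMN_2642418 (adjusted p = 4.1e-06). The probes did not give 1 call for WT L8 vs L0, where the brightest gave 0.71 ± 0.25 (adjusted p = 0.0533 among genes), ILMN_2642417 gave 0.67 ± 0.16 (adjusted p = 0.0116 among probes) and ILMN_2642418 gave 0.24 ± 0.11 (adjusted p = 0.14 among probes). The mean of the 3 probes passed (0.54, adjusted p = 0.00942). The brightest probe passed without WT L8 replicate 1 (adjusted p = 0.00815) and in the fit with a replicate block (adjusted p = 0.0481).

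**Figure D1:**
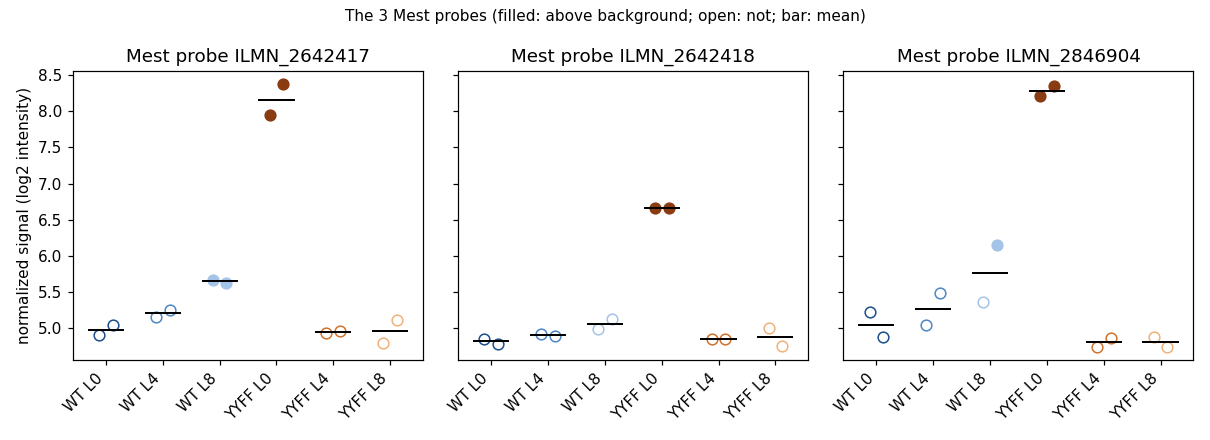
Normalized log2 intensity of the 3 Mest probes on the 12 arrays, by group; filled points were above background, open points were not, and bars are group means of 2 arrays. Each probe was brightest in YYFF L0, from 6.66 to 8.38. In WT L8 all 3 lay above their WT L0 values, which were at background, and ILMN_2642418 was at background in WT L8 too.

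Ndn encodes necdin, a protein of the MAGE family that restrains cell proliferation, and lies in the imprinted cluster that corresponds to the human Prader-Willi region. Its log2 intensity was 9.23 and 9.13 in WT L0. It was 5.32 and 5.03 in WT L4, 4.92 and 4.86 in WT L8, and between 4.61 and 4.82 on the 6 YYFF arrays, none of which was above background. The WT L0 arrays alone carried the gene, with non-normalized intensities of 732 and 624. Ndn was at least 11.9-fold lower in WT L4 (limma, adjusted p = 1.14e-07) and at least 12.7-fold lower in WT L8 (adjusted p = 3.99e-08) than in WT L0. At L0 it was lower in YYFF than in WT by at least 13-fold (adjusted p = 4.75e-08). Ndn entered the test only through the WT L0 arrays, so it too had to differ.

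Grb10 encodes an adaptor that binds the insulin and Igf1 receptors and dampens growth signalling. Of the 6 genes it alone was above background on all 12 arrays, and it was bright throughout. Its log2 intensity was 12.35 and 12.27 in WT L0, 11.65 and 11.63 in WT L4, and 11.20 and 11.30 in WT L8. In YYFF it was 12.67 and 12.89 at L0, 12.18 and 12.16 at L4, and 12.13 and 12.03 at L8. In each clone the L0 arrays were the highest and did not overlap the later ones. The order of the group means was YYFF L0, WT L0, YYFF L4, YYFF L8, WT L4 and WT L8, and YYFF L4 and YYFF L8 did not differ by the test.

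From L0 to L8 Grb10 fell 2.09-fold in WT (log2 change -1.07 ± 0.10, limma, adjusted p = 8.37e-05) and 1.63-fold in YYFF (-0.70 ± 0.10, adjusted p = 0.000776). From L0 to L4 it fell 1.60-fold in WT (-0.67 ± 0.10, adjusted p = 0.00301) and 1.53-fold in YYFF (-0.61 ± 0.10, adjusted p = 0.00201). With the arrays scaled on their medians in place of quantiles, the WT L8 vs L0 change kept its call (-1.07, adjusted p = 0.0018). The other 3 lost theirs under that scaling, at -0.56 (adjusted p = 0.0816) in YYFF L8, -0.72 (0.0622) in WT L4 and -0.38 (0.273) in YYFF L4. Grb10 was higher in YYFF than in WT by 1.38-fold at L0 (adjusted p = 0.00991), 1.45-fold at L4 (adjusted p = 0.00342) and 1.78-fold at L8 (adjusted p = 0.00026). The L0 difference missed the threshold with median scaling (0.28, adjusted p = 0.449), without WT L0 replicate 2 (adjusted p = 0.0596) and without YYFF L0 replicate 2 (adjusted p = 0.0786).

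Peg3, a zinc finger protein of the paternal copy, and Plagl1, a zinc finger growth regulator, were not above background on any array. The Peg3 probe gave non-normalized intensities of 42.8 to 57.6 (lowest detection p-value 0.66). The 3 Plagl1 probes ranged from 44.1 to 56.3, from 47.2 to 64.9 and from 43.3 to 60.1, with lowest detection p-values of 0.595, 0.373 and 0.519. At this brightness no difference between groups could be measured for either gene.

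**Figure D2:**
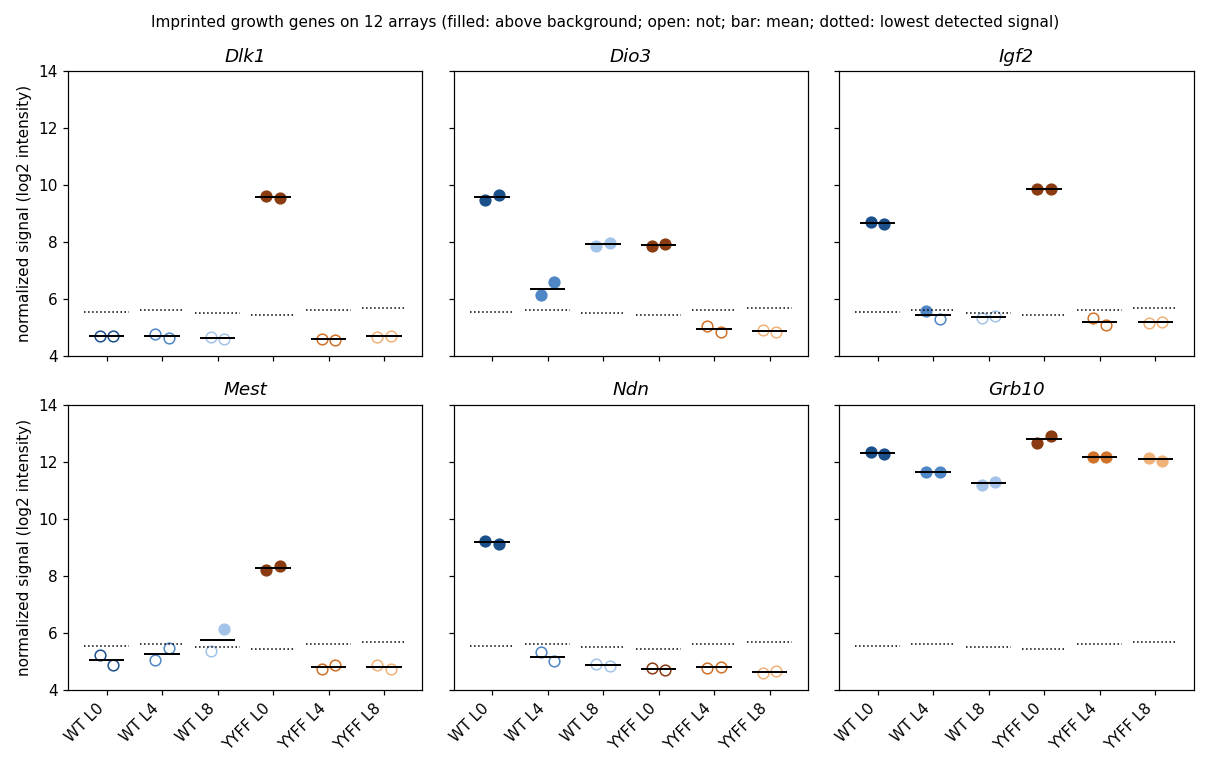
Normalized log2 intensity of the 6 tested genes on the 12 arrays, by group; filled points were above background, open points were not, solid bars are group means of 2 arrays, and dotted bars the dimmest signal that counted as above background, averaged over the group. Dlk1 and Mest stand high in YYFF L0, Ndn in WT L0, Igf2 at L0 of both clones, and Grb10 lies between 11.20 and 12.89 everywhere.

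Set side by side by comparison, 5 of the 6 tested genes were lower in YYFF L4 than in YYFF L0 (Dlk1, Dio3, Igf2, Mest and Grb10) and none was higher. Over all 8891 genes, 17.2% were lower and 14.4% higher in that comparison, with a median log2 change of 0.02. The same 5 genes were lower in YYFF L8 than in YYFF L0, where 19.3% of all genes were lower and 17.1% higher. Ndn, at background in every YYFF group, changed by 0.07 (adjusted p = 0.71) and -0.09 (adjusted p = 0.585). Dlk1 and the Mest probe that was tested passed the filter through their YYFF L0 signal, and Igf2 through the L0 arrays of both clones. These counts therefore describe the 6 genes and are not read against the background. The L4 and L8 comparisons share the L0 arrays.

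None of the 6 passed in YYFF L8 vs L4, where 1.44% of all genes passed in either direction with limma and 1449 genes had an unadjusted p under 0.05. The adjusted p-values of the 6 lay between 0.561 and 0.991, and no alternative setting called any of them. Dlk1, Dio3, Igf2, Mest and Ndn were at background at both passages, and Grb10 changed by -0.09 with an interval from -0.33 to 0.15. In the WT clone 4 of the 6 were lower in L4 than in L0 (Dio3, Igf2, Ndn and Grb10) and none was higher, against 7.99% lower and 7.49% higher over all genes. The same 4 were lower in WT L8 than in WT L0, against 17.7% lower and 18.4% higher over all genes. Ndn was among them by its selection, and Igf2 had passed the filter only with L0 arrays. In WT L8 vs L4, Dio3 was higher and Grb10 lower (-0.39 ± 0.10, adjusted p = 0.0298), against 19.6% of all genes in either direction. The Grb10 call there was lost without any 1 of the 4 arrays (adjusted p = 0.0816 to 0.157).

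**Figure D3:**
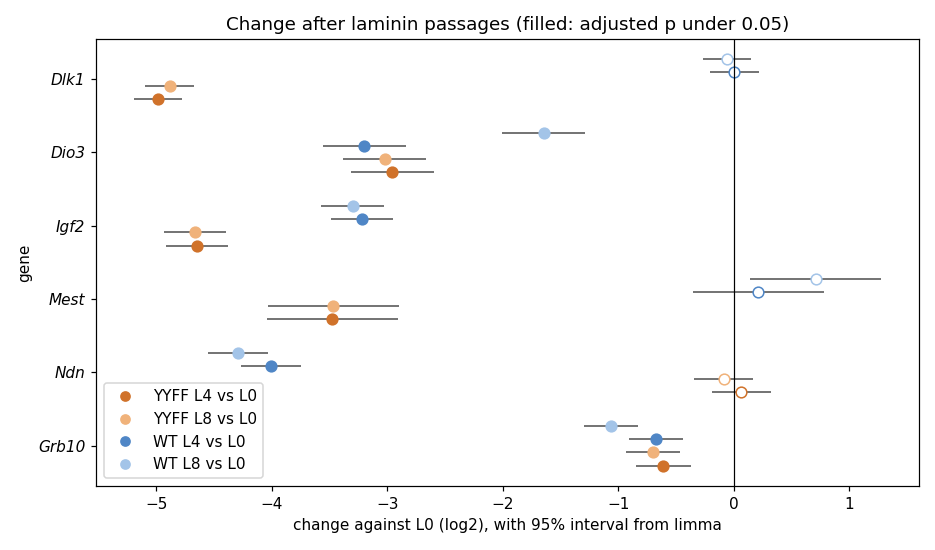
Log2 change against L0 of the same clone for the 6 tested genes, with 95% intervals from limma; filled points passed at an adjusted p of 0.05. Dio3, Igf2 and Grb10 lie below 0 in both clones, Dlk1 and Mest lie below 0 in YYFF, and Ndn in WT. Points set against a group at background show the fitted value, where the data give only a bound (at L8 at least 14.8-fold for Dlk1, 6.00-fold for Mest and 12.7-fold for Ndn).

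Between the clones at L0, Dlk1, Igf2, Mest and Grb10 were higher in YYFF and Dio3 and Ndn were lower, against 14.7% higher and 12.2% lower over all genes. At L4 the clones differed in Dio3, Grb10 and Ndn, against 37.9% of all genes in either direction. The Ndn difference at L4 (-0.37, adjusted p = 0.0295) lay between values at background on all 4 arrays and is given no fold. Its call was lost without WT L4 replicate 1 (adjusted p = 0.172), YYFF L4 replicate 1 (0.125) or YYFF L4 replicate 2 (0.0898). At L8 they differed in Dio3, Grb10 and Mest, against 37.0% of all genes. The Mest difference at L8 (-0.95 ± 0.25, adjusted p = 0.0159) was lost without WT L8 replicate 2 (adjusted p = 0.0985) or YYFF L8 replicate 2 (0.0702).

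The difference between the clones in their change from L0 to L4 (interaction) passed for Dlk1, Igf2, Mest and Ndn, against 23.7% of all genes. That from L0 to L8 passed for the same 4 and for Dio3, against 31.8% of all genes. Dlk1, Ndn and the tested Mest probe passed the filter only with 1 bright group each, so their interactions follow from that selection. For Dlk1, Mest and Ndn the clone with the smaller change had the gene at or near background throughout, and nothing is read from the size. For Igf2, which ended at background in both clones, the interaction was -1.42 ± 0.17 at L4 and -1.37 ± 0.17 at L8 (adjusted p = 0.000343 for each), close in size to the L0 difference of 1.18. For Dio3 it was 0.24 ± 0.22 at L4 (adjusted p = 0.487), whereas at L8 it was -1.38 ± 0.22 (adjusted p = 0.0017). Grb10 passed at neither passage (0.06 ± 0.15, adjusted p = 0.799, and 0.36 ± 0.15, adjusted p = 0.0936), so its fall was not shown to differ between the clones.

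To see whether nearby genes moved along, the 5 nearest tested genes on each side of each gene were taken from the order of the RefSeq gene table. Around Dlk1 in YYFF L8 vs L0, its neighbour Dio3 was at least 4.64-fold lower and the log2 changes of the other 9 lay between -0.74 (Slc25a47, lower) and 1.62 (Hsp90aa1, adjusted p = 0.0644). Wars, the tested gene on the other side of Dlk1, changed by -0.27 (adjusted p = 0.175), and Ppp2r5c, the next beyond Dio3, rose by 0.45 (adjusted p = 0.0302). In YYFF the falls of Dlk1 and Dio3 were thus not shared at their size by the tested genes around them. In WT L8 vs L0 the 10 neighbours of Dlk1 held 5 that fell, Dio3 among them, and 1 that rose (Eml1, 0.95).

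Around Igf2 in YYFF L8 vs L0, 3 of 10 neighbours fell and none rose. Lsp1, a leukocyte actin-binding protein, fell by 2.25 and the tetraspanin Cd81 by 0.68. Cdkn1c, an imprinted cell cycle inhibitor of the adjoining cluster, was at least 1.36-fold lower and was at background at L8. It was above background on L0 arrays alone, so its fall follows from its selection. Its log2 intensity was 6.14 ± 0.06 (SD) in YYFF L0 and 5.45 ± 0.33 in WT L0, and 4.73 to 4.84 in the 4 other groups. In WT L8 vs L0 the neighbours of Igf2 lay between -0.67 and 0.65, while Igf2 was at least 9.0-fold lower.

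Next to Ndn lies Snrpn, an imprinted gene of the same cluster that encodes a splicing protein. Its pattern was not that of Ndn in either clone. Its log2 intensity was 9.30 ± 0.05 in WT L0, 8.17 ± 0.10 in WT L4 and 9.38 ± 0.04 in WT L8, so that in WT L8 vs L0 it changed by 0.08 (adjusted p = 0.661). In YYFF it was 8.11 ± 0.04 at L0 and at background at L4 and L8, at least 5.32-fold lower at L8 (adjusted p = 1.3e-07). Mkrn3, on the other side of Ndn, was above background on the 6 WT arrays and on none of the YYFF arrays, and at L0 its YYFF signal was at least 4.89-fold below that of WT. Mkrn3 passed the filter on detection only with WT arrays, so a difference between the clones was built into its selection. Around Mest in YYFF L8 vs L0, neighbours ranged from -1.63 (Exoc4) to 0.99 (Akr1b8), and around Grb10 from -2.80 (Egfr) to 2.15 (Ramp3).

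**Figure D4:**
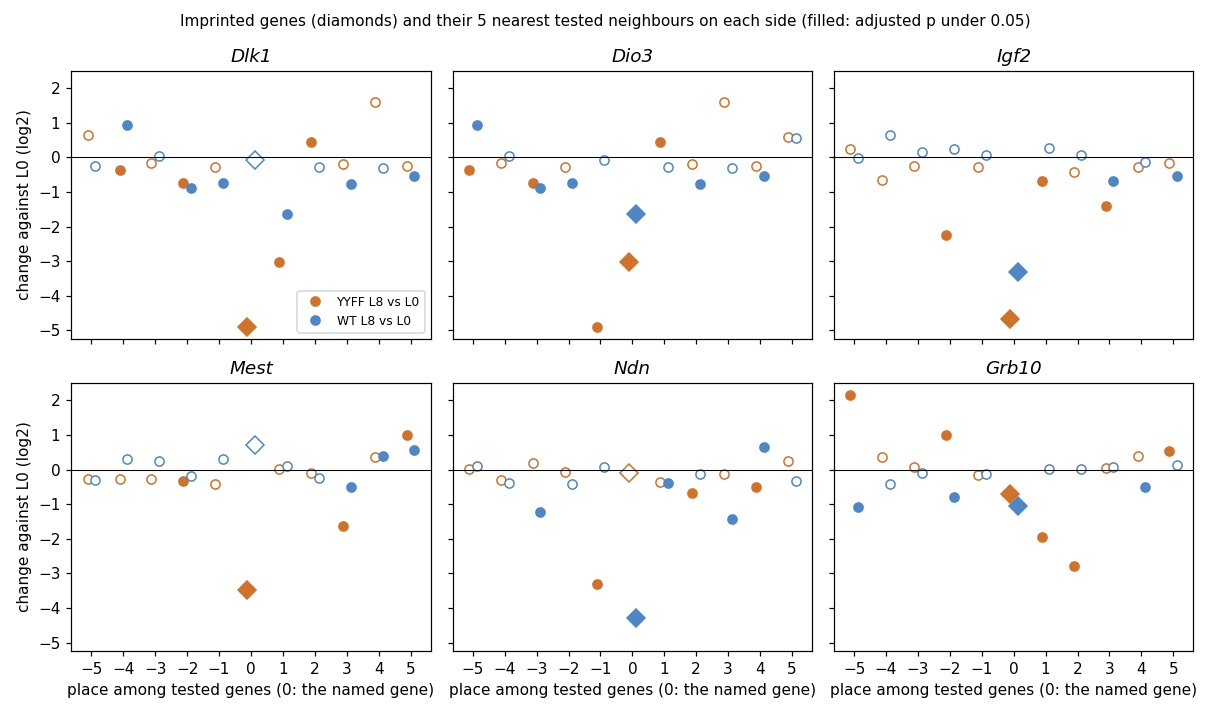
Log2 change of L8 against L0 in YYFF and WT for each tested gene (diamond, place 0) and its 5 nearest tested genes on each side, by their order on the chromosome; filled symbols passed at an adjusted p of 0.05. In YYFF, Dio3 beside Dlk1 and Snrpn beside Ndn lie far below 0; where a gene was at background at L8 the point is the fitted value, and the data give only a bound.

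Of 48 other imprinted genes listed, 40 had a probe and 15 were tested. In YYFF L4 vs L0, 4 of the 15 were lower and 4 higher (median log2 change -0.12), against 17.2% and 14.4% of all genes. In YYFF L8 vs L0, 3 were lower and 3 higher (median -0.08), against 19.3% and 17.1%. In WT L4 vs L0, 3 were lower and 1 higher (median -0.15), against 7.99% and 7.49%, and in WT L8 vs L0, 2 were lower and 5 higher (median 0.06), against 17.7% and 18.4%. The median of all genes lay between -0.01 and 0.03 in these 4 comparisons. Among the 15, Cdkn1c passed the filter only through L0 arrays. Dcn, a matrix proteoglycan that is imprinted in mouse placenta, rose by 3.43 ± 0.10 in YYFF L8 (adjusted p = 4.42e-08) and by 1.64 ± 0.10 in WT L8. The sterol reductase Dhcr7 rose by 0.86 in YYFF L8 and 1.29 in WT L8, and Commd1 rose by 0.57 in YYFF L8, where Trappc9 fell by 0.76. The paraoxonases Pon3 and Pon2 rose by 1.33 and 0.60 in WT L8. Igf2r, which clears Igf2, rose by 0.55 ± 0.13 in YYFF L4 (adjusted p = 0.0108) and fell by 0.88 ± 0.13 in WT L4 (adjusted p = 0.0022). At L8 its change from L0 passed in neither clone, at 0.27 in YYFF (limma, adjusted p = 0.134) and -0.15 in WT (adjusted p = 0.399).

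Genes of the pathways that these products act in were counted in the same way. Of 11 tested genes of insulin-like growth factor signalling (Igf1, receptors, receptor substrates, binding proteins and RNA-binding partners), 3 were lower and 2 higher in YYFF L8 vs L0 (median -0.04), against 19.3% and 17.1% of all genes. The WT clone at L8 had 4 lower and 1 higher than at L0 (median -0.15), against 17.7% and 18.4%. Igf1r, the receptor through which Igf2 signals, fell by 0.94 ± 0.32 in YYFF L8 (adjusted p = 0.0471) and by 1.46 ± 0.32 in WT L8 (adjusted p = 0.00678). The receptor substrate Irs2 fell by 1.32 in YYFF L8 and by 1.12 in WT L8, and the binding protein Igfbp7 rose by 0.92 and 1.38. Igf2bp3, which binds Igf2 mRNA, rose by 1.38 in YYFF L8, and its relative Igf2bp1 fell by 1.15 in WT L8. The binding protein Igfbp4 had a log2 intensity of 11.41 ± 0.0046 (SD) in WT L0 and 7.18 ± 0.08 in YYFF L0, a difference of -4.23 ± 0.12 (adjusted p = 7.05e-08). Igfbp2, another binding protein, was above background in WT L0 alone, the pattern of Ndn, and so had to be among those lower in WT.

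Of 7 tested Notch genes, 4 were lower and none higher in YYFF L4 vs L0 (median -1.15), against 17.2% and 14.4% of all genes, and 4 were lower and 1 higher in YYFF L8 vs L0 (median -1.19), against 19.3% and 17.1%. The receptor Notch3, among the 4 in each, was above background in YYFF L0 alone and so had to fall. The Notch target Hey1 fell by 3.29 ± 0.15 in YYFF L8 (adjusted p = 4.2e-07), the target Hes1 by 1.56 and the receptor Notch1 by 1.52 ± 0.13. In WT L8 vs L0, 1 of the 7 was lower and 1 higher (median -0.08), against 17.7% and 18.4%, with Hes1 falling by 2.72 ± 0.12. The receptor Notch4 was above background on L8 arrays alone, both WT L8 arrays among them, so a rise at L8 was built into its selection. Of 5 tested genes of thyroid hormone handling, the hormone that Dio3 inactivates, 4 were higher and none lower in YYFF L8 vs L0 (median 0.99), against 17.1% and 19.3% of all genes. The WT L8 vs L0 comparison had 2 higher and 2 lower (median -0.26), against 18.4% and 17.7%. Rxra, another of the 5, was above background only on arrays after laminin, so a rise from L0 was in part built into its selection. Its mean log2 intensity was 5.13 in YYFF L0 and 6.58 in YYFF L8, and 5.27 in WT L0 and 6.64 in WT L8. The corepressor Hr, a target of the hormone receptor, rose by 1.51 in YYFF L8 and by 1.64 in WT L8, and Klf9, another target, rose by 0.60 in YYFF L8 and fell by 0.69 in WT L8. Slc16a10, a transporter of the hormone, rose by 0.99 in YYFF L8.

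Of 13 tested genes that set or keep imprints, 1 was lower and 1 higher in YYFF L8 vs L0 (median -0.13), against 19.3% and 17.1% of all genes. The lower was Trim28, a corepressor that protects imprints from loss of methylation (-0.64 ± 0.11, adjusted p = 0.00212). The higher was Ctcfl, a germ line paralogue of the insulator protein Ctcf, at least 2.93-fold, which is named after its values were seen because it was at background at L0. Ctcfl was above background only on arrays after laminin, so a rise from L0 in either clone was in part built into its selection. In WT L8 vs L0, 2 were lower, the maintenance methyltransferase Dnmt1 (-0.54 ± 0.17, adjusted p = 0.0305) and Trim28 (-0.43, adjusted p = 0.0159), and Ctcfl was at least 2.06-fold higher (median -0.17), against 17.7% lower and 18.4% higher over all genes. In WT L4 vs L0 none of the 13 passed.

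The genes whose profile over the 12 arrays was most like each of these genes are named as a description, since the arrays share clones and passages. Genes with a provisional symbol (Gm with a number, Rik or LOC) were left out of this ranking. Dlk1 was closest to Slc5a7, a choline transporter, to Nptx2, a pentraxin, and to Cd59b, a complement regulator (Pearson r of 0.997 each), all above background in YYFF L0 alone. Ndn was closest to Rerg (0.995), Ralyl (0.993) and Igfbp2 (0.990), all above background in WT L0 alone. Igf2 was closest to the transcription factor Tfap2b (0.995), to Gadd45g (0.983) and to Wsb1 (0.982), of which the last 2 were above background on every array. Mest was closest to Rnd3 (0.977), Cacna1h (0.969) and Slc35e3 (0.968), and Dio3 to Llgl2 (0.954), Gspt2 (0.950) and Acp6 (0.943). Among the 6 genes themselves, Dlk1 and Mest had an r of 0.948, and Ndn had an r of -0.220 with Dlk1 and -0.241 with Mest.

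Total signal per array was 13197182 to 17683779, with 10392 to 11766 probes above background, and the number of arrays limits the precision. Itgb1, which codes for β1 integrin, passed detection on every array (group means of 8.31 to 9.11), and its probes cannot show the YYFF change. Although the labels call both clones female, Xist, the RNA that coats an inactive X chromosome, passed detection on the 6 WT arrays and on none of the 6 YYFF arrays. Of 9 fibroblast markers with a probe, Col1a1, Col3a1, Pdgfrb and Vim were above background in every group, while Thy1 and Postn were in none. The mean log2 intensity over the 9 was 8.29 in YYFF L0 and 7.57 and 7.46 in YYFF L4 and L8, and in WT it was 7.42, 7.43 and 7.22. The 9 did not move as 1 in YYFF: Vim was at 13.79, 14.20 and 14.13 and Col1a1 at 11.45, 10.66 and 9.71 in L0, L4 and L8, and Thy1 lay at background. Pdgfra, a receptor of mesenchymal precursors, was at 9.36 in YYFF L0 and at 5.73 and 5.31 in YYFF L4 and L8, the widest range of the 9 in that clone. Markers of cartilage and bone were highest in WT L4 (a mean of 6.83 over 6 markers, against 5.33 to 5.82 in the other groups), with Col2a1 at 9.25. Of 8 markers of skeletal muscle progenitors only Myog was above background on both arrays of a group, in YYFF L0, and of 6 adipocyte markers only Pparg was, in every group. Markers of endothelium (0 to 2 of 6 per group), blood (0 to 1 of 5) and epithelium (0 to 1 of 5) were mostly at background, and of 5 neural markers Sox2 and Map2 were above it in every group. The part of such differences in cell state in the levels of the imprinted genes was not tested.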

How the data were processed

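Per the labels' protocols, total RNA was amplified, labelled with biotin and hybridised, 1 array per sample. The table of non-normalized values that the authors deposited holds, per the file headers and per probe and array, a signal intensity of the beads with its detection p-value. The sources used here do not name the software that made it, and the submitters' processing notes name limma with no role. In the table of processed intensities that the authors deposited, 11 of 12 columns share 1 distribution (median 80.2), while WT L0 replicate 2 equals its non-normalized intensity (median 87.0). The non-normalized intensities were therefore used.

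With limma 3.58.1 in R 4.3.3, intensities were background-corrected by normexp (offset 16, with the controls' spread taken from the detection p-values), then quantile-normalized and put on the log2 scale. Probes with a detection p-value under 0.05 on at least 2 of 12 arrays were kept (12974), and each gene was read from its brightest such probe. Platform gene symbols, which 23978 probes had and 1719 had not, were updated through RefSeq (GRCm38.p6) by Entrez ID for 23962 probes and by accession for 9. That table was otherwise used for chromosomes and gene order only. A model with 1 mean per group gave all contrasts (6 residual degrees of freedom), with eBayes statistics, p-values adjusted by Benjamini-Hochberg over the 8891 genes and a threshold of 0.05, and ± is an SE unless called SD. A gene with both arrays of a group below background has only a bound there. The dimmer side was then, per array, the lowest value of any probe above background (5.40 to 5.85), or the gene's own value where that was higher. Median scaling, no background correction, the authors' values, other filters and probe rules, replicate blocks, the compared groups alone and each array left out were tried as alternatives, with the authors' values quantile-normalized again added after seeing the data. The model was tested on simulated data.

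The 10 genes, the lists and the tests were chosen with earlier results of these data known. From each list at most 4 genes past the threshold were named per comparison, the largest changes among those above background on every array compared, of which the text gives a part, besides the neighbours (5 tested genes on each side) and the 3 most similar profiles of each gene whose group means span at least 2 on the log2 scale. Those profiles were ranked without genes of provisional symbol.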

Additional observations from a re-analysis of the deposited data

Results flagged for a closer look

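For 5 of the 6 tested genes the change from L0 differed between the clones when the difference itself was tested (limma, YYFF change minus WT change on the log2 scale, 2 arrays per group). At L4 it was -4.99 for Dlk1 (adjusted p = 1.45e-07), -1.42 for Igf2 (0.000343), -3.69 for Mest (9.41e-05) and 4.07 for Ndn (8.16e-07). At L8 it was -4.83 for Dlk1 (adjusted p = 2.07e-07), -1.38 for Dio3 (0.0017), -1.37 for Igf2 (0.000343), -4.18 for Mest (3.55e-05) and 4.20 for Ndn (4.64e-07). Dlk1 lay at background on every WT array and Ndn on every YYFF array, so each of their values is the change of 1 clone set against a gene at background in the other. Dlk1 and Ndn also passed the filter on detection only through the group in which they are bright. The tested Mest probe passed it only with its YYFF L0 arrays. The differences of Dlk1, Mest and Ndn therefore follow from that selection and are no separate result. Where a group lay at background, the values are fitted ones with no exact size. The Dio3 value at L8 sets a YYFF group at background against a WT group above it, and without background correction it was -0.46 (adjusted p = 0.0501).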

How the results depend on the processing

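Over 11 comparisons the 6 genes gave 41 calls, of which 33 held under each of 15 to 19 alternatives; of 1038 recomputed values 22 lost a call, 16 gained one and 0 reversed. Only WT L8 vs L4 changed its count by over 1.5 times: 2 genes were called, and 1 (Dio3) with median scaling, 1 with the compared groups alone, and 1 to 2 with an array left out (1 without WT L4 replicate 1 or WT L8 replicate 2). Besides the lost calls given with the results and that of Dio3 in the L8 interaction, the compared groups alone lost Grb10 in WT L8 vs L4 (adjusted p = 0.0963) and, between the clones, Grb10 at L0 (0.0514), Ndn at L4 (0.112) and Mest at L8 (0.0735), and median scaling lost Grb10 in WT L8 vs L4 (0.409) and Ndn at L4 (0.194). Median scaling moved the median change of all genes by at most 0.06. Calls were gained for Mest in WT L8 vs L0 (8 alternatives), and, without WT L8 replicate 1, in WT L8 vs L4 (adjusted p = 0.0362). Ndn gained one in WT L8 vs L4 without WT L4 replicate 2 (0.0477) and between the clones at L8 under 3 alternatives, and Dio3 in the L4 interaction under 3 (lowest 0.0121). Folds near background depend on the correction: without it the fitted YYFF L8 vs L0 change was -3.53 for Dlk1 and -3.37 for Igf2, with the calls kept. The replicate block from the titles gave 5 genes in place of 4 in WT L8 vs L0 (Mest added) and changed no other count; the cause was not tested. By the numbers in the titles, replicates of different groups deviated together, with r of 0.02 to 0.35 (all above 0, 13 of 15 pairs of groups over 0.1). The sample descriptions number the replicates differently and match the titles in 3 of the 6 groups. By their numbers r was -0.35 to 0.23, with 5 of 15 pairs over 0.1. The hint of pairing thus rested on the titles alone. The labels name no shared source and not every pair was over 0.1, so the block was kept as an alternative. Signal over background limits Dlk1, Mest and Ndn after laminin to bounds where they fell. The same holds for Dio3 and Igf2 in YYFF after laminin and for Igf2 in WT at L8.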
